A study of Mus musculus with 8 samples.

Results

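Transplanted cardiac fibroblasts were recovered from infarcted mouse hearts on Day 7 (in vivo 1 week) and Day 14 (in vivo 2 week), and the change between both weeks is described here from 4 of the 8 libraries of the series, 2 per week. The other 4 libraries come from the same kind of cells kept in culture for the same times. They show where the heart differs, and they also enter the estimate of the spread behind the tests of the heart. The cells were MICFs, that is, cardiac fibroblasts taken from adult C57BL/6 hearts after myocardial infarction (MI), and all groups carried the same genotype label, MGTMyoS overexpression. This stands for tetracycline-inducible lentiviruses for a polycistronic *Mef2c*, *Gata4* and *Tbx5* (MGT), for *Myocd* and for *Sall4*, with eGFP. The in vivo cells had been injected into the left ventricle of C57BL/6 mice at coronary ligation, and the hosts received doxycycline and the immunosuppressants tacrolimus, mycophenolate mofetil and methylprednisolone (TMM) until eGFP+ cells were sorted. The in vitro cells grew in medium for induced cardiomyocytes (iCMs) with doxycycline, the TGF-β receptor inhibitor SB431542 and the JAK inhibitor baricitinib, which the in vivo groups did not receive. The sources do not give which animals or wells the replicates came from, so p-values measure only the spread between these libraries, which may be technical. The study reports that its isolated MICFs also held macrophages and a small share of endothelial cells. A transplanted cell of these types, a cell that took up eGFP without every factor, or a host cell that holds eGFP, would pass the same gate.

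Fibroblasts of an infarct pass through known stages. In the first days they divide and migrate, then they become myofibroblasts that secrete collagen, periostin and contractile proteins, and later many lose the contractile programme and turn to a matrix with tendon and cartilage components. Macrophages in the same wound change over the same period, from cells that clear debris towards cells with the genes of resident tissue macrophages. Forced expression of cardiac factors competes with these programmes, and the question addressed here is what the sorted cells expressed a week later than at the first time point.

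Values are FPKM, fragments scaled to gene length in kilobases and to library size, as deposited. Genes with at least 0.5 FPKM in at least 2 of the 4 in vivo libraries were tested, which kept 14537 of 54532 genes. Changes are differences of log2(FPKM + 0.1), 2 week minus 1 week, and this scale understates the change of low genes. A gene was said to rise or fall where limma, fitted on all 8 libraries in 4 groups, gave a Benjamini-Hochberg adjusted p under 0.01 and a difference over 1 on the log2 scale. In bulk samples, fewer cells of a type and less RNA per cell cannot be told apart.

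Between 12304242 and 14546904 fragments fell on genes in the in vivo libraries, and 1 fragment on a gene of 1 kb was worth 0.0768 to 0.0905 FPKM. In vivo 2 week replicate 1 stood apart from the rest. In this library, 31 enzyme genes of the exocrine pancreas took 0.987% of the fragments, against 0.312% in in vivo 2 week replicate 2, 0.0747 to 0.0808% in both 1 week libraries and 0.0544 to 0.0757% in culture. *Ctrb1*, a chymotrypsinogen, was at 139 and 137 FPKM at 1 week and at 1884 and 570 FPKM at 2 weeks. All 30 of these genes that were tested were higher at 2 weeks, and 16 of them passed the test, among them 6 of the 15 largest rises (*Ctrb1*, *Prss2*, *Reg1*, *Cel*, *Rnase1* and *Ctrl*). A list of 12 neuronal and myelin genes had a summed level of 20.5 and 20.6 FPKM at 1 week and of 65.1 and 30.6 FPKM at 2 weeks. All 9 tested members were higher at 2 weeks, but limma called 0 (8 at an unadjusted p under 0.05) and limma-voom on recovered fragments called 2. *Ncdn* alone was at 12.9 and 13.6 FPKM and then at 23.1 and 16.4 FPKM. The untested *Nefm* was at 0.443 and 0.372 FPKM and then at 0.475 and 0.157 FPKM. Both lists were written after their values were seen, and where these transcripts came from was not tested. For many lists below, though not all, counts of called members are therefore also given without in vivo 2 week replicate 1. The pancreatic genes are left out of the descriptions that follow.

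The sorted cells had the genes of fibroblasts. *Col1a1* lay between 2762 and 4709 FPKM, *Tcf21*, a transcription factor of cardiac fibroblasts, between 41.3 and 65.4 FPKM, and *Pdgfra*, the PDGF receptor of mesenchymal cells, between 20.1 and 27.8 FPKM in the 4 libraries. None of the 13 tested markers of cardiac fibroblasts was called by limma, while 10 had an unadjusted p under 0.05 and limma-voom on recovered fragments called 0. Macrophage genes were abundant in the same libraries: *Cd68* was at 126 and 109 FPKM at 1 week and at 66.3 and 51.6 FPKM at 2 weeks, and the 20 listed macrophage markers summed to 4034 and 3412 FPKM and then to 2895 and 2387 FPKM. Markers of T and NK cells summed to 5.06 and 4.62 FPKM at 1 week and to 4.02 and 2.46 FPKM at 2 weeks, with *Cd3e*, a chain of the T cell receptor complex, at no more than 0.0837 FPKM and *Trbc2*, a constant gene of the receptor itself, at 1.23, 1.44, 2.18 and 1.31 FPKM. Those of neutrophils summed to 11.3 and 14.3 FPKM and then to 14.8 and 4.99 FPKM, with *Ly6g* at 0 in each in vivo library and the receptor gene *Csf3r* at 7.12, 6.19, 4.17 and 2.53 FPKM. In culture the 20 macrophage markers summed to 5966 and 6791 FPKM at 1 week and to 5680 and 6948 FPKM at 2 weeks. The part of these cells in the results was not tested, nor whether they came from the host or from the transplanted pool.

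Between Day 7 and Day 14, 219 genes rose, which is 1.51% of the genes tested, and 158 fell, which is 1.09%. Each count of called list members below is to be set beside these shares. The median change of all tested genes was -0.0046. An unadjusted p under 0.05 was given to 33.2% of all tested genes, and in 59.5% of them the libraries of both weeks did not overlap, so neither is by itself a mark of the genes described below. Of the genes that rose, 36 had both 1 week libraries under the minimum of 0.5 FPKM, and of those that fell, 37 had both 2 week libraries under it. These passed the filter through the higher week, and their log2 differences depend on the pseudocount. Most of the called genes, 89.4%, were protein-coding. The largest rises outside the pancreatic genes were macrophage genes (*Retnla*, *Marco*, *Fcna*, *Mgl2*) and matrix genes (*Cilp2*, *Cytl1*, *Myoc*). The largest falls were *Sprr1a* and *Mcpt4*, followed by genes of invasion and matrix turnover (*Adam12*, *Cemip*, *Adam8*), of monocytes and macrophages (*Cd72*, *Spp1*, *Plac8*, *Clec12a*) and of cell division (*Top2a*, *Ube2c*, *Mki67*, *Ccnb2*). *Sprr1a*, a cornified envelope gene induced by injury, went from 19.7 and 12 FPKM to 2.09 and 1.01 FPKM (log2 difference -3.31, limma adjusted p = 0.0017). Both late libraries were below both early ones.

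These counts depend on the libraries in the fit. With the 4 in vivo libraries alone, 53 genes rose and 4 fell at the same threshold, and 255 rose and 185 fell at an adjusted p under 0.05. Without in vivo 2 week replicate 1, 132 genes rose and 124 fell, and 204 of the 256 were among the 377 of the fit on all libraries. Without in vivo 2 week replicate 2 the total was 204 genes, without in vivo 1 week replicate 2 it was 105, and without in vivo 1 week replicate 1 it was 28.

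**Figure D1:**
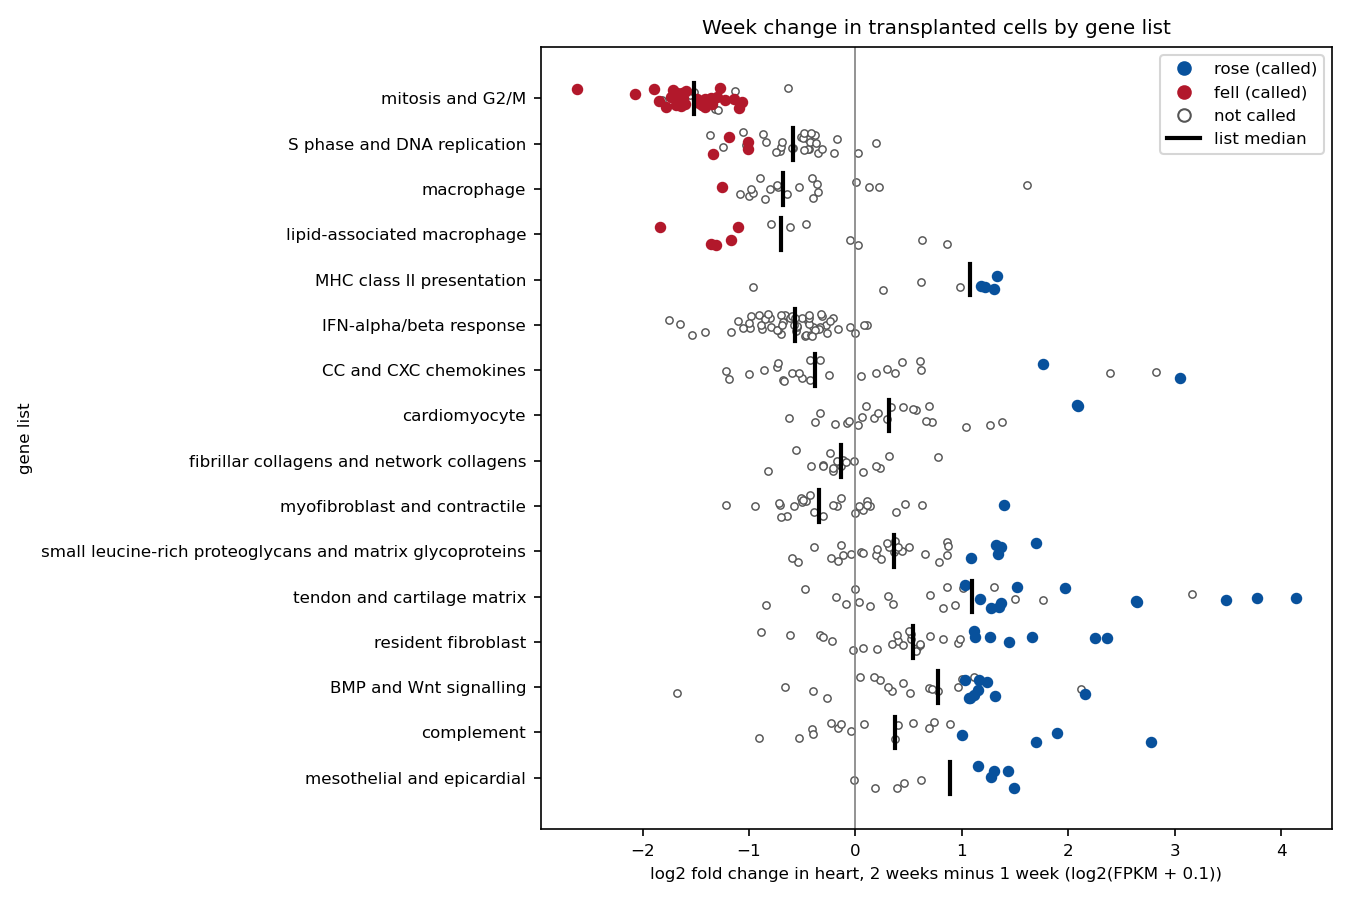
Changes of the gene lists between 1 and 2 weeks in the heart. Each row is a list, each point a tested gene on the axis of log2 difference (2 week minus 1 week), with called genes in colour and the median marked; mitosis genes sit to the left of 0, with a median of -1.52, and tendon and cartilage matrix genes mostly to the right, with a median of 1.10.

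Transcripts of mitosis fell. Mitosis genes are switched on together late in the cell cycle, through CCAAT boxes bound by NF-Y and through a short element, the CHR, with the core TTTGAA, which recruits the DREAM and B-MYB complexes. The list held 40 genes, of which 39 were tested. All 39 had a lower mean at 2 weeks, and 31 fell, against 1.09% of all tested genes. Their log2 differences ran from -2.62 to -0.63 with a median of -1.52, beside -0.0046 over all tested genes.

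The 250 bases before the start of the gene (RefSeq, GRCm38.p6) were searched for CCAAT and for TTTGAA on either strand. CCAAT stood in 24 of the 32 mitosis genes that matched a promoter (75.0%), in 19 of the 24 that had fallen (79.2%), in 37.5% of all 27025 genes with a promoter and in 39.8% of the 10153 tested genes with one. TTTGAA stood in 10 of the 32 (31.2%), all 10 of them among the 24 that had fallen (41.7%), in 18.3% of all genes and in 12.8% of tested genes. In genes of S phase the shares were 61.3% for CCAAT and 12.9% for TTTGAA. A match is a description of these letters and not a binding site. The list was drawn from a class of genes known for such elements, so its higher shares are no support from these data. Since all 39 tested members had a lower mean, the 24 differ from the rest by the threshold. What part these elements had in the fall was not tested. For 4 genes that the description below turns on, up to 200 of the 250 bases are shown 5′ to 3′ on the strand of the gene. Each match within them to the CCAAT box or to the CHR core, in either orientation, is in capitals. Bases next to the RefSeq start that lie inside the gene by its deposited coordinates are not shown, 26 for *Cdk1*, 84 for *Ccnb1* and 31 for *Ube2c*. The shares above include them, so a stretch need not show every match. The first run of capitals in *Ube2c* holds 2 CCAAT matches that overlap in opposite orientations. The windows are chr11:99024190-99024389 (minus strand) for *Top2a*, chr10:69352939-69353112 (minus) for *Cdk1*, chr13:100786571-100786686 (minus) for *Ccnb1* and chr2:164769729-164769897 (plus) for *Ube2c*.
Top2a: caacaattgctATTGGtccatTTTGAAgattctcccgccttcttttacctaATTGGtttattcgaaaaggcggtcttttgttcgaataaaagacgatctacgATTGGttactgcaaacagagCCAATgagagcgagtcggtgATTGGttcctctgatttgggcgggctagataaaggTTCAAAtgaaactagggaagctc
Cdk1: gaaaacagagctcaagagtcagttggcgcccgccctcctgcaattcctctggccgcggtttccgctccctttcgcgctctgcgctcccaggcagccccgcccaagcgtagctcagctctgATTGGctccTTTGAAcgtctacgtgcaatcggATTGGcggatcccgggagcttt
Ccnb1: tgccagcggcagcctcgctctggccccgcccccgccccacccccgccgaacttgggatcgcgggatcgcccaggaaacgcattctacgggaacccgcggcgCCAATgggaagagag
Ube2c: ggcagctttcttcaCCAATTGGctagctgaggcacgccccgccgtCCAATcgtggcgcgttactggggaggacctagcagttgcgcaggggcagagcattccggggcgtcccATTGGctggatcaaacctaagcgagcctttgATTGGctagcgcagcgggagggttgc

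*Top2a*, which untangles chromosomes before they separate and showed 5 CCAAT matches and 2 of TTTGAA above, was at 6.04 and 5.66 FPKM at 1 week and at 1.84 and 1.31 FPKM at 2 weeks. The late libraries were both below the early ones, by 3.60-fold on the mean of log2 values (log2 difference -1.85, SE 0.15, limma adjusted p = 0.00093). *Cdk1*, the kinase that drives entry into mitosis, went from 4.17 and 4.28 FPKM to 1.38 and 1.21 FPKM (log2 difference -1.63, limma adjusted p = 0.00095). Its partner *Ccnb1* went from 2.31 and 2.97 FPKM to 0.777 and 0.515 FPKM (-1.89, limma adjusted p = 0.0023). None of these genes overlapped between weeks.

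*Ube2c*, the ubiquitin-conjugating enzyme that the anaphase-promoting complex uses to clear cyclins, was at 5.26 and 5.40 FPKM at 1 week and at 1.40 and 1.57 FPKM at 2 weeks. Its fall of 1.78 on the log2 scale passed the test (limma adjusted p = 0.00041), also in each of the 4 fits that left out an in vivo library. *Mki67*, the proliferation antigen Ki-67, went from 5.46 and 6.68 FPKM to 2.41 and 1.49 FPKM (-1.62, limma adjusted p = 0.0046), and *Pbk*, a mitotic kinase, from 4.2 and 3.99 FPKM to 0.989 and 0.809 FPKM (-2.07). Spindle motors (*Kif4*, *Kif11*, *Kif20a*, *Kif23*), centromere proteins (*Cenpa*, *Cenpe*), Aurora kinases (*Aurka*, *Aurkb*) and the regulator *Foxm1* fell with them, by between 1.23 and 1.73 on the log2 scale.

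Replication genes moved less. Of 35 tested genes of S phase, 4 fell (*Uhrf1*, *Ccne1*, *Mcm5* and *Rrm2*), and the median was -0.59. *Mcm5*, a subunit of the replicative helicase, went from 6.10 and 6.44 FPKM to 3.48 and 2.70 FPKM. The count was 3 without in vivo 2 week replicate 1, 1 without in vivo 2 week replicate 2 and, by limma, 0 without either in vivo 1 week library or with the in vivo libraries alone, while with all libraries 28 of the 35 had an unadjusted p under 0.05 and limma-voom called 7. Of 20 cell cycle inhibitors and p53 targets, 0 were called by limma, with 10 at an unadjusted p under 0.05 and 1 called by limma-voom on recovered fragments. *Cdkn1a*, which encodes the inhibitor p21, was at 77.4 and 70.2 FPKM and then at 72.6 and 72.7 FPKM.

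The medians of the mitosis list lay between -1.49 and -1.46 when any in vivo library was left out, while the number called was 23 without in vivo 2 week replicate 1, 18 without in vivo 2 week replicate 2, 6 without in vivo 1 week replicate 2 and 1 without in vivo 1 week replicate 1. With the in vivo libraries alone it was 0 at an adjusted p under 0.01 and 26 at an adjusted p under 0.05, and limma-voom on recovered fragments called 36. In culture the same list had a median of -1.06 with 18 genes that fell, from higher levels (*Top2a* was at 13.5 and 14.6 FPKM at 1 week and at 5.21 and 5 FPKM at 2 weeks). The difference between both time courses passed the test only for *Ube2c*.

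**Figure D2:**
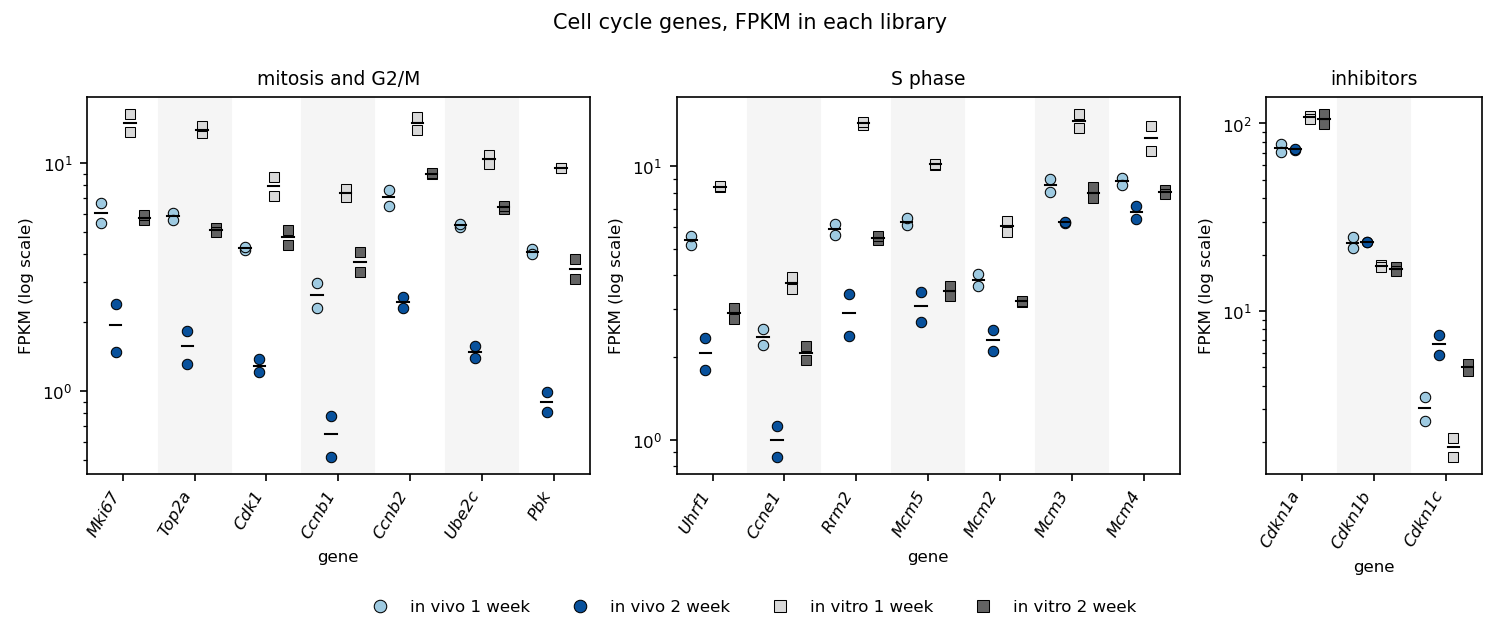
FPKM of cell division genes in each library on a log axis. Points are single libraries by group and black bars the mean of 2 libraries; every in vivo 2 week library lies below both in vivo 1 week libraries for the mitosis genes shown, while *Cdkn1a* stays between 70.2 and 77.4 FPKM in the heart.

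Macrophage genes split into a part that fell and a part that rose. Of 12 genes of lipid-associated macrophages, which clear debris after injury, 5 fell and 0 rose, with a median of -0.70. *Spp1*, the secreted phosphoprotein osteopontin, which fibroblasts also make and which the study counts among its fibroblast-related genes, went from 204 and 181 FPKM to 61.3 and 46.6 FPKM (log2 difference -1.84, SE 0.18, limma adjusted p = 0.0014). *Lgals3*, galectin-3, went from 137 and 108 FPKM to 53 and 42.3 FPKM (-1.36, limma adjusted p = 0.0029). Both genes were lower in each late library than in each early one.

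*Gpnmb*, a glycoprotein of phagocytes, went from 26.2 and 24.2 FPKM to 12.5 and 11 FPKM, and *Fabp5*, a fatty acid carrier, from 18.1 and 15.1 FPKM to 7.23 and 6.02 FPKM. *Trem2*, the lipid-sensing receptor that names this state, fell by 1.17 on the log2 scale with an adjusted p of 0.0099 by limma, just inside the threshold. *Cd9*, another member, went the other way, at 74.4 and 74.2 FPKM and then 129 and 142 FPKM, below the fold limit (0.86). The count of 5 was 4 without in vivo 2 week replicate 1, 2 without in vivo 2 week replicate 2, 1 without in vivo 1 week replicate 2, and 0 both without in vivo 1 week replicate 1 and with the in vivo libraries alone.

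Of the 20 general macrophage markers, 16 had a lower mean at 2 weeks and the median was -0.68, but 1 fell, *Ms4a7*, from 37.3 and 32.6 FPKM to 15.4 and 13.8 FPKM (-1.25, limma adjusted p = 0.001), a call not made without in vivo 1 week replicate 1 or with the in vivo libraries alone. *Adgre1*, which encodes F4/80, was at 100 and 88.4 FPKM and then at 58.6 and 43.2 FPKM (-0.90, limma adjusted p = 0.012), and *Csf1r*, the receptor of the growth factor M-CSF, at 71.6 and 64.4 FPKM and then at 58.8 and 47.9 FPKM (-0.35, limma adjusted p = 0.15). The values of these markers did not overlap between weeks, though neither passed both thresholds. *Mrc1*, the mannose receptor, was at 35.8 and 32.3 FPKM and then at 35.9 and 32.8 FPKM.

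Against this lower sum, some genes of tissue-resident macrophages rose and others did not. *Retnla*, a secreted product of alternatively activated macrophages, was at 0.143 and 0 FPKM at 1 week and at 9.17 and 13.5 FPKM at 2 weeks, so that it passed the filter through the 2 week libraries. *Marco*, a scavenger receptor, went from 0.976 and 0.439 FPKM to 38.8 and 28.6 FPKM (log2 difference 5.46, limma adjusted p = 0.001). *Lyve1*, a hyaluronan receptor of resident cardiac macrophages and of lymphatic endothelium, went from 2.66 and 2.58 FPKM to 13.2 and 19 FPKM (2.55, limma adjusted p = 0.00053). In all 3 genes the late libraries were well above the early ones, and *Retnla* was 0 in all 4 culture libraries.

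*Fcna*, ficolin-A, went from 2.36 and 0.894 FPKM to 17.9 and 20.4 FPKM, and *Mgl2*, a C-type lectin, from 0.938 and 1.21 FPKM to 8.46 and 10.8 FPKM (limma adjusted p = 0.0019 and 0.00066). A list of 17 such genes, written after these values were seen and so no support for the pattern, had 9 that rose and a median of 2.39. It also included *Timd4* (0 and 0.0353 FPKM, then 1.35 and 1.38 FPKM), a phosphatidylserine receptor of long-lived resident macrophages, and *Alox15* (0.104 and 0.0938 FPKM, then 5.60 and 2.84 FPKM), a lipoxygenase of peritoneal macrophages, which both passed the filter through the 2 week libraries. The other 8 of the 17 were not called. Among them, *Folr2* did not follow (6.02, 3.67, 4.53 and 4.51 FPKM). *F13a1*, *Clec10a* and *Cbr2* changed by 0.35, 0.70 and 0.66 on the log2 scale, under the fold limit. Without in vivo 2 week replicate 1, 4 of the 17 were called, as without in vivo 2 week replicate 2 or without in vivo 1 week replicate 2, and 2 without in vivo 1 week replicate 1.

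Of 8 tested genes of MHC class II, which presents antigen to helper T cells, 4 rose and 0 fell, and the median was 1.08. *Cd74*, the invariant chain that guides class II molecules, went from 129 and 116 FPKM to 313 and 289 FPKM (log2 difference 1.30, SE 0.10, limma adjusted p = 0.00088). *H2-Ab1* went from 41.0 and 38.5 FPKM to 105 and 95.2 FPKM (1.33, limma adjusted p = 0.00043), and *H2-Aa* and *H2-Eb1* rose by 1.18 and 1.22. Each late value was above each early one. *Ciita*, the transactivator of these genes, was at 0.233 and 0.467 FPKM and then at 0.808 and 0.712 FPKM and was not called (limma adjusted p = 0.20). *Ctss*, the protease cathepsin S that trims the invariant chain, was lower at 2 weeks (441 and 317 FPKM, then 219 and 168 FPKM, -0.96, limma adjusted p = 0.014). All 4 calls were made with the in vivo libraries alone and without either in vivo 2 week library, 2 without in vivo 1 week replicate 2 and 1 without in vivo 1 week replicate 1. The summed macrophage markers fell as these genes rose, and what part other cell types had in the rise was not tested. Of the markers for dendritic cells, 3 of 8 were tested, 0 were called by limma, 0 had an unadjusted p under 0.05 and limma-voom called 0.

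**Figure D3:**
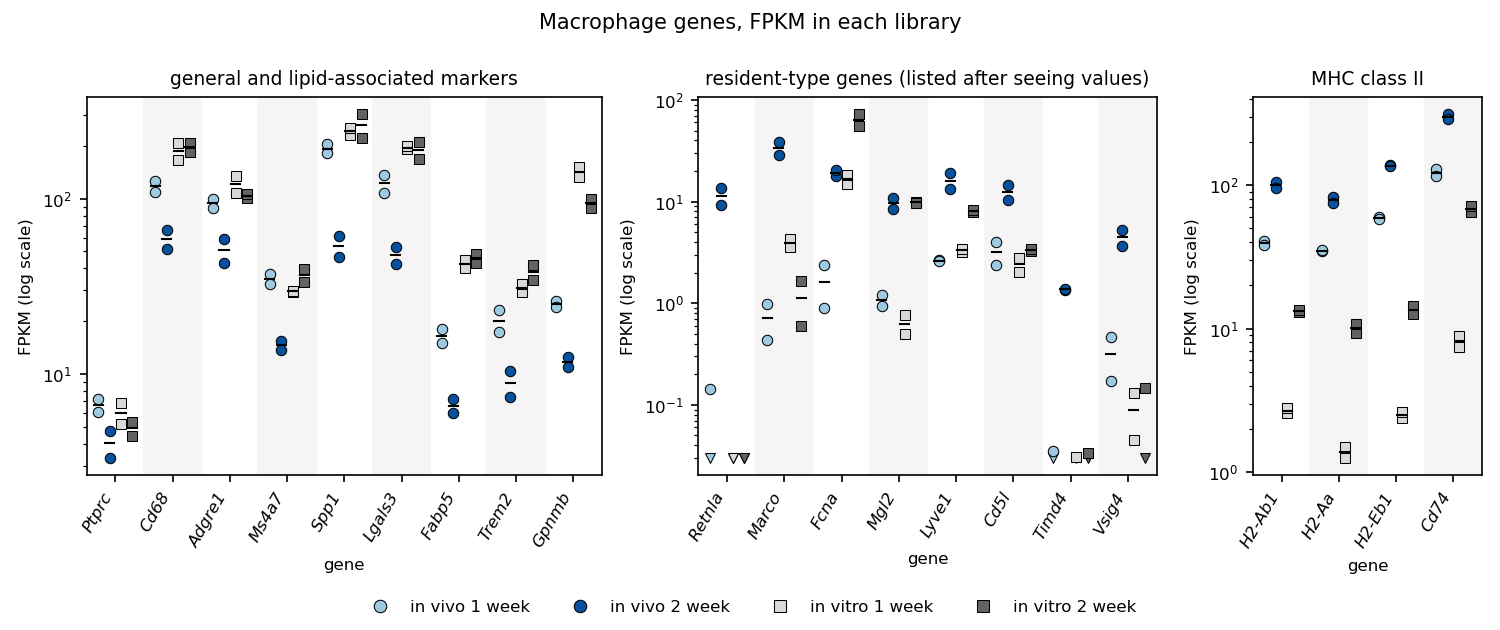
FPKM of macrophage and antigen presentation genes in each library on a log axis. Points are single libraries, bars the mean of 2, and triangles at 0.03 FPKM values below 0.03; *Spp1*, *Trem2* and *Gpnmb* are lower in both in vivo 2 week libraries, and *Marco*, *Retnla* and *H2-Ab1* higher.

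The large collagen genes were not called, while other matrix genes rose. None of the 19 collagen genes of the fibrillar and network types was called by limma, with 11 at an unadjusted p under 0.05 and 0 called by limma-voom, and their median was -0.14. *Col1a1*, the main chain of type I collagen (chr11:94936224-94953042, GRCm38), was at 4132 and 4709 FPKM at 1 week and at 3261 and 2762 FPKM at 2 weeks (-0.56, limma adjusted p = 0.02). *Col3a1* was at 3132 and 3397 FPKM and then at 3333 and 2741 FPKM (-0.11, limma adjusted p = 0.56), so its weeks overlapped. *Fn1*, fibronectin, stood at 1296 and 1505 FPKM and then at 979 and 736 FPKM (-0.72, limma adjusted p = 0.016).

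Most genes of myofibroblasts and contraction were lower, but 0 fell by limma. Of the 28 tested, 18 had a lower mean at 2 weeks and 10 a higher one. The lowest log2 difference was -1.22, and limma-voom called 1 lower. *Acta2*, smooth muscle actin, was at 600 and 572 FPKM and then at 399 and 428 FPKM (-0.50, limma adjusted p = 0.0081), and *Postn*, periostin, at 1985 and 1897 FPKM and then at 1439 and 1283 FPKM (-0.51, limma adjusted p = 0.016). The median of 28 tested genes of this list was -0.35, and the 1 called member, *Myh11*, a smooth muscle myosin, rose from 13.2 and 12.6 FPKM to 34.6 and 33.9 FPKM (1.40, limma adjusted p = 0.00038), also when any in vivo library was left out.

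Components of tendon and cartilage matrix rose. Of 30 tested genes, 12 rose and 0 fell, against 1.51% of all tested genes that rose, and the median was 1.10. *Comp*, cartilage oligomeric matrix protein, which spaces collagen fibrils (chr8:70373558-70382066), went from 146 and 195 FPKM to 1036 and 1071 FPKM, a 6.24-fold rise (log2 difference 2.64, SE 0.14, limma adjusted p = 0.00038). *Cilp2*, a cartilage intermediate layer protein (chr8:69880369-69887687), went from 1.09 and 1.42 FPKM to 18.3 FPKM in both late libraries (3.77, limma adjusted p = 0.00035). *Angptl7*, a secreted angiopoietin-like protein of tendon and eye, went from 12.9 and 15.1 FPKM to 81.7 and 95.7 FPKM (2.65, limma adjusted p = 0.00019). All 3 rises passed in each of the 4 fits that left out an in vivo library.

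*Cilp* itself, which is made by fibroblasts of the pressured heart, went from 198 and 216 FPKM to 512 and 483 FPKM, and *Clec3b*, tetranectin, from 36.6 and 40.3 FPKM to 147 and 154 FPKM. *Fmod*, the fibril-binding proteoglycan fibromodulin, rose by 1.52 and *Thbs4*, a thrombospondin of tendon, by 1.17 on the log2 scale. *Scx*, the transcription factor scleraxis of tendon cells, went from 11.5 and 15.8 FPKM to 29.4 and 25.9 FPKM with an adjusted p of 0.0096 by limma, just inside the threshold. *Tnmd* and *Chad*, which mark mature tendon and cartilage, were higher in both late libraries (2.46 and 3.12 against 9.36 and 9.90 FPKM, and 0.712 and 0.594 against 5.64 and 7.71 FPKM) but were not called with all libraries (limma adjusted p = 0.068 and 0.017). The number called in this list was 7 without either of the in vivo 2 week libraries, 6 without in vivo 1 week replicate 2, 4 without in vivo 1 week replicate 1 and 8 with the in vivo libraries alone; without in vivo 2 week replicate 1, 1 gene of the list also fell.

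Of 31 proteoglycans and glycoproteins, 5 rose and 0 fell, with a median of 0.36. *Prelp*, a proline-rich proteoglycan that anchors basement membranes, went from 89.2 and 110 FPKM to 313 and 333 FPKM (1.70, limma adjusted p = 0.00063). *Eln*, elastin, went from 582 and 685 FPKM to 1381 and 1301 FPKM (1.09, limma adjusted p = 0.00097). *Fbln1*, which binds elastic fibres, rose by 1.37, *Tnxb*, tenascin-X, by 1.34 and *Omd*, osteomodulin, by 1.32. *Dcn*, decorin, was higher in both late libraries (506 and 490, then 892 and 913 FPKM) but under the fold limit at 0.86. The count was 5 without any of the other in vivo libraries but 0 without in vivo 1 week replicate 1, and 2 with the in vivo libraries alone.

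Of 30 tested genes of resident, unactivated fibroblasts, 7 rose and 0 fell, with a median of 0.55. *Gsn*, the actin-severing protein gelsolin (chr2:35256380-35307892), went from 662 and 694 FPKM to 3210 and 3793 FPKM, a 5.14-fold rise (log2 difference 2.36, SE 0.10, limma adjusted p = 0.00024). *Pi16*, a peptidase inhibitor that marks fibroblasts of the adventitia (chr17:29318877-29329413), went from 78.9 and 88.5 FPKM to 390 and 406 FPKM (2.25, limma adjusted p = 0.00014). *Sfrp2*, a secreted Wnt modulator, went from 404 and 455 FPKM to 1213 and 1123 FPKM (1.44, limma adjusted p = 0.00053). The groups were far apart in each of these genes. *Htra3*, *Scara5*, *Entpd2* and *Fgl2* rose by 1.11 to 1.66 on the log2 scale. The count was 8 without in vivo 2 week replicate 1, 5 without in vivo 2 week replicate 2 or in vivo 1 week replicate 2, 3 without in vivo 1 week replicate 1 and 5 with the in vivo libraries alone.

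Among 25 matrix proteases and inhibitors, 3 fell and 1 rose. *Mmp14*, the membrane-bound protease that activates other proteases, went from 237 and 228 FPKM to 127 and 106 FPKM (-1.0, limma adjusted p = 0.0012). *Adamts12* went from 21.9 and 21.5 FPKM to 8.90 and 7.18 FPKM and *Adamts14*, which trims procollagen, from 8.38 and 7.49 FPKM to 3.65 and 3.24 FPKM. *Mmp3*, stromelysin, rose from 11.1 and 14.9 FPKM to 36.5 and 32.2 FPKM (1.41, limma adjusted p = 0.0035). The late libraries were on 1 side of the early ones in all 4 genes. *Adam12*, a protease of activated mesenchyme outside this list, was among the largest falls, from 18.8 and 19.3 FPKM to 5.89 and 3.67 FPKM, and *Cemip*, which breaks down hyaluronan, went from 31.1 and 28.3 FPKM to 9.62 and 5.84 FPKM. Without in vivo 2 week replicate 1 the 3 falls of the list were called and the rise was not; without in vivo 2 week replicate 2, 2 fell, and without either in vivo 1 week library or with the in vivo libraries alone, 0 genes of the list were called by limma.

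**Figure D4:**
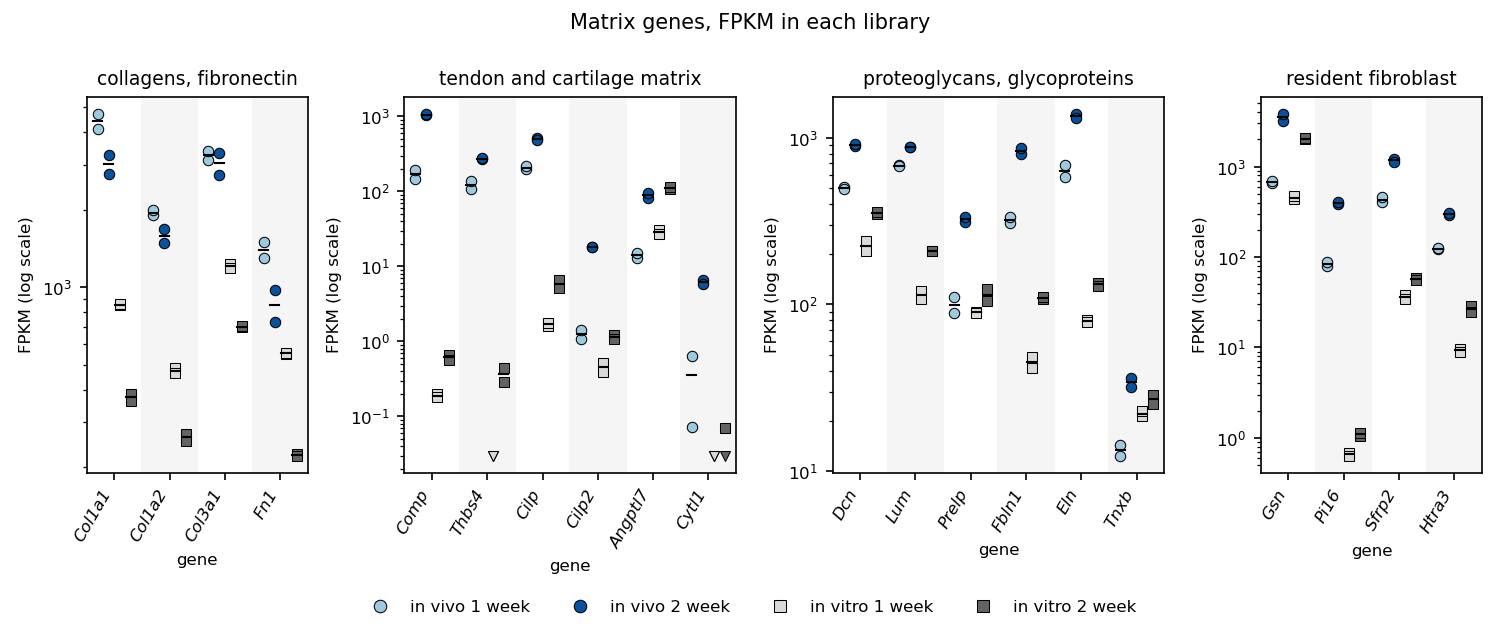
FPKM of matrix and fibroblast genes in each library on a log axis. Points are single libraries and bars the mean of 2; *Comp*, *Cilp2*, *Gsn* and *Pi16* are higher in both in vivo 2 week libraries, while *Col1a1* and *Col3a1* stay between 2741 and 4709 FPKM in the heart.

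BMP ligands signal to the *Id* genes, and secreted proteins such as chordin-like, Dickkopf and Frizzled-related proteins hold ligands of both pathways in check. Of 27 tested genes of the BMP and Wnt pathways, 9 rose and 0 fell, with a median of 0.78. The ligand *Bmp4* (chr14:46383520-46390669) went from 8.28 and 7.34 FPKM to 18.0 and 19.2 FPKM (log2 difference 1.24, SE 0.08, limma adjusted p = 0.00056), and *Bmp6* from 14.3 and 16.2 FPKM to 33.4 and 30.9 FPKM. The target *Id1* went from 51.0 and 59.1 FPKM to 123 and 115 FPKM (1.11, limma adjusted p = 0.00097), and *Id4* rose by 1.03. Ligands and targets did not overlap between weeks.

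The BMP antagonist *Chrdl1* went from 1.16 and 1.39 FPKM to 5.70 and 6.35 FPKM (2.16, limma adjusted p = 0.00075), and *Dkk3*, a Dickkopf family member, from 144 and 142 FPKM to 295 and 309 FPKM (1.08, limma adjusted p = 0.00043). *Wnt9a* and *Rspo1*, which activate Wnt signalling, rose by 1.16 and 1.15, and the antagonist *Sfrp5* by 1.31 from levels under 1 FPKM. *Bmp2* was at 5.45 and 4.62 FPKM and then at 3.86 and 4.46 FPKM, without a call, and *Dkk2*, another Dickkopf gene, at 3.07 and 2.84 FPKM and then at 0.956 and 0.758 FPKM (-1.68, limma adjusted p = 0.011), a fall that limma-voom called. The count was 8 without in vivo 2 week replicate 1, 5 without in vivo 2 week replicate 2 or in vivo 1 week replicate 2, and 2 without in vivo 1 week replicate 1 or with the in vivo libraries alone.

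Of 28 growth factors and receptors, 3 rose (*Igfbp6*, *Fgf18* and *Igfbp2*). *Igfbp6*, which binds IGF-II, went from 76.0 and 86.4 FPKM to 250 and 270 FPKM (1.68, limma adjusted p = 0.00038). The count was 2 without either in vivo 2 week library and 1 without either in vivo 1 week library or with the in vivo libraries alone, and without in vivo 1 week replicate 2, 1 gene of the list also fell. Of 26 TGF-β ligands and targets, 2 rose, *Comp* and *Scx*, which are also in the tendon list (1 when any in vivo library was left out or with the in vivo libraries alone), and *Tgfb1* was at 29.5 and 30.9 FPKM and then at 28.3 and 30.3 FPKM. *Klf2*, a transcription factor of quiescent cells, was the 1 called gene of 24 immediate early genes, from 110 and 113 FPKM to 269 and 246 FPKM (1.21, limma adjusted p = 0.00053). It was the 1 that rose in this list without in vivo 2 week replicate 1, when 1 other gene fell, and it was not called without in vivo 1 week replicate 1.

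Type I interferon (IFN) signals through IFNAR1 and IFNAR2, JAK kinases and STATs to antiviral genes, and the study examined this pathway. Of 55 tested genes of the IFN-α/β response, 0 were called by limma, 33 had an unadjusted p under 0.05, and limma-voom on recovered fragments called 5, all lower. The median was -0.57, and 2 of the 55 had a higher mean at 2 weeks. *Isg15*, a ubiquitin-like antiviral protein, was at 82.4 and 53.6 FPKM and then at 49.3 and 32.3 FPKM (-0.73, limma adjusted p = 0.09). *Oas2*, which makes the activator of RNase L, was at 13.6 and 6.24 FPKM and then at 3.44 and 2.38 FPKM (-1.65, limma adjusted p = 0.033). *Mx1* was at 4.24 and 2.66 FPKM and then at 2.57 and 1.60 FPKM (-0.70, limma adjusted p = 0.29). In these genes in vivo 1 week replicate 1 was the highest library and the late values lay below the lower early one. Without in vivo 1 week replicate 1 the median of the list was -0.35, and without in vivo 1 week replicate 2 it was -0.82.

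Among the receptors, *Ifnar1* was at 20.7 and 20.9 FPKM and then at 18.1 and 17.7 FPKM, and *Ifnar2* at 19.9 and 19.2 FPKM and then at 16.3 and 18.3 FPKM. Of 12 tested genes of the IFN ligand, receptor and STAT axis, 0 were called by limma, 6 had an unadjusted p under 0.05 and limma-voom called 0. *Ifnb1*, the ligand, did not pass the filter, and its values of 0.456, 3.58, 0 and 0.241 FPKM rested on 4, 35, 0 and 2 fragments. Of 22 genes of the IFN-γ response, 0 were called by limma, 8 had an unadjusted p under 0.05 and limma-voom called 1. Of 20 genes of MHC class I, *H2-Q6* fell (22.9 and 13.7 FPKM, then 6.63 and 6.47 FPKM, limma adjusted p = 0.0081), and *H2-K1* was at 402 and 315 FPKM and then at 292 and 288 FPKM. *H2-Q6* has close relatives in its locus, so its count is uncertain, and the fall was called again only without in vivo 1 week replicate 2 among the fits that left out an in vivo library.

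Of 26 chemokines, 2 rose and 0 fell, and the median was -0.38. With the in vivo libraries alone limma called 0 of them, while limma-voom on all libraries called 4 higher and 1 lower. The monocyte chemokine *Ccl2* was at 130 and 144 FPKM and then at 82.5 and 56.9 FPKM (-1.0, limma adjusted p = 0.013), *Ccl7* at 128 and 129 FPKM and then at 96.9 and 61.8 FPKM (-0.73, limma adjusted p = 0.051), and *Ccl12* at 43.1 and 42.9 FPKM and then at 32.3 and 24.8 FPKM (-0.60, limma adjusted p = 0.085). Their weeks did not overlap, yet none was called. *Ccl6* rose from 20.6 and 15.4 FPKM to 57.2 and 63.4 FPKM (1.76, limma adjusted p = 0.0013), and *Cxcl13*, which attracts B cells, from 0.297 and 0.334 FPKM to 5.39 and 2.05 FPKM. Of 31 inflammatory genes, 2 fell: *Ptgs2*, the inducible cyclooxygenase, from 97.3 and 87.2 FPKM to 51.0 and 32.9 FPKM, and *Lif*, a cytokine of the IL-6 family, from 24.3 and 21.1 FPKM to 11.8 and 8.89 FPKM (limma adjusted p = 0.0081 and 0.0052). *Il6* was at 30.3 and 26.2 FPKM and then at 36.2 and 26.9 FPKM. Without in vivo 2 week replicate 1, 2 chemokines rose and 1 fell; 1 rose without in vivo 2 week replicate 2 and 0 were called by limma without either in vivo 1 week library. The falls of the inflammatory list were 2 without in vivo 2 week replicate 1 and 0 without any of the other in vivo libraries.

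Of 19 tested complement genes, 4 rose and 0 fell, with a median of 0.37, and 8 had a lower mean at 2 weeks. *C4b*, of the classical pathway (chr17:34728380-34743882), went from 32.9 and 30.6 FPKM to 118 and 117 FPKM (log2 difference 1.89, SE 0.10, limma adjusted p = 0.00038), and *C7*, of the membrane attack complex, from 5.97 and 7.89 FPKM to 47.1 and 48.5 FPKM (2.78, limma adjusted p = 0.001). The replicates of a week lay close together in these genes. The central component *C3* rose by 1.00 on the log2 scale, at the fold limit. The count was 3 without in vivo 2 week replicate 1, 4 without in vivo 2 week replicate 2, 3 without in vivo 1 week replicate 2 and 2 without in vivo 1 week replicate 1.

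Of 40 genes of cardiomyocytes, 24 passed the filter, 2 rose, beside 1.51% of all tested genes, and 0 fell, and the median was 0.31. The 16 others were too low to test, and the 2 that rose did so from low values. *Pln*, phospholamban, which restrains the calcium pump of the sarcoplasmic reticulum, was at 0.526 and 0.696 FPKM at 1 week and at 3.31 and 2.56 FPKM at 2 weeks (2.09, limma adjusted p = 0.0093), and *Tcap*, a titin-binding protein, at 0.631 and 1.30 FPKM and then at 3.74 and 4.68 FPKM (2.08, limma adjusted p = 0.008). Both are just inside the threshold, and neither was called with the in vivo libraries alone or when any in vivo library was left out. Without in vivo 2 week replicate 1, 3 other genes of the list rose.

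*Tnni3*, cardiac troponin I, was at 0.911 and 1.12 FPKM and then at 0.816 and 1.45 FPKM (0.10, limma adjusted p = 0.83), and the weeks overlapped. *Tnnt2*, cardiac troponin T, was at 5.08 and 5.54 FPKM and then at 7.27 and 10.7 FPKM (0.72, limma adjusted p = 0.026), and *Actc1*, cardiac actin, at 2.64 and 4.08 FPKM and then at 4.11 and 6.66 FPKM (0.66, limma adjusted p = 0.12). *Myh6*, the adult atrial and rodent ventricular myosin, was untested at 0.127, 0.183, 0.0922 and 0.363 FPKM, from 10, 16, 7 and 27 fragments. The 40 genes summed to 168 and 186 FPKM at 1 week and to 200 and 223 FPKM at 2 weeks. In culture the same genes summed to 455 and 487 FPKM and then to 1825 and 1596 FPKM.

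None of the delivered factors changed past the threshold, with 0 of 5 called by limma, 1 at an unadjusted p under 0.05 and 0 by limma-voom. *Gata4* was at 37.3 and 35.9 FPKM and then at 38.0 and 37.5 FPKM, and *Mef2c* at 5.34 and 5.38 FPKM and then at 5.57 and 5.61 FPKM. *Tbx5* changed by -0.21, *Myocd* by -0.18 and *Sall4* by -0.55 on the log2 scale (limma adjusted p = 0.41, 0.41 and 0.12). The files do not tell vector transcripts from those of the cell's own genes.

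Genes of mesothelium and epicardium, the epithelial cover of the heart, rose from low levels. Of 10 tested genes, 5 rose (*Krt19*, *Upk3b*, *Msln*, *Upk1b* and *Rspo1*), with a median of 0.89, and the list's sum went from 21.0 to 22.7 FPKM at 1 week to 42.5 to 43.3 FPKM at 2 weeks. *Upk3b*, a uroplakin, went from 2.13 and 1.67 FPKM to 5.40 and 5.13 FPKM (1.43, limma adjusted p = 0.00074). The count was 5 without in vivo 2 week replicate 1, 3 without in vivo 2 week replicate 2 or in vivo 1 week replicate 2, 1 without in vivo 1 week replicate 1 and 0 with the in vivo libraries alone.

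*Mcpt4*, a mast cell chymase, had the smallest adjusted p of the named genes. It went from 6.48 and 5.82 FPKM to 1.12 and 1.14 FPKM (log2 difference -2.34, SE 0.07, limma adjusted p = 8e-05) and fell in all 4 fits that left out an in vivo library. *Cpa3*, another mast cell protease, was below the filter at 0.113, 0.405, 0.584 and 0.0597 FPKM, so the mast cell list gives only 2 tested genes. In culture *Mcpt4* was at 61.5 to 146 FPKM. There the proteases *Cpa3* and *Tpsb2* were at no more than 0.0485 FPKM, and the receptor gene *Kit* was at 1.19 to 2.02 FPKM. Which cells made *Mcpt4* was not tested. Immunoglobulin transcripts were higher: *Ighm* rose from 6.11 and 9.85 FPKM to 26.6 and 20.4 FPKM (1.57, limma adjusted p = 0.006), a call made in 1 of the 4 fits that left out an in vivo library, and *Igkc* was at 2.73 and 7.07 FPKM and then at 35.5 and 20.4 FPKM (2.58, limma adjusted p = 0.011). In culture *Ighm* rose as well, from 8.61 and 10.3 FPKM to 24.3 and 25.3 FPKM (1.39), while *Igkc* was at 0 there. The B cell genes *Cd79a* and *Cd79b* changed by -0.91 and -1.17 in the heart, without a call. *Lyve1*, already given, was the 1 called gene of 18 endothelial genes, and *Myh11* that of 10 genes of mural cells. Each of these lists also gave 1 gene that rose without in vivo 2 week replicate 1.

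Among metabolic and stress genes, the lists gave up to 3 calls each. Of 20 genes of fatty acid use and adipogenesis, *Plin4*, a lipid droplet protein, rose (0.163 and 0.226 FPKM, then 1.47 and 1.68 FPKM) and *Fabp5* fell. In this list 1 gene rose and 2 fell without in vivo 2 week replicate 1. Of 17 NRF2 targets and metallothioneins, 3 rose, all of them glutathione transferases (*Gsta3*, *Gsta4* and *Gstm1*, by 1.48, 1.43 and 1.03), a count that was 2 without either in vivo 2 week library, 1 without either in vivo 1 week library and 0 by limma with the in vivo libraries alone (10 of the 17 had an unadjusted p under 0.05 with all libraries, and limma-voom called 3). Of 5 tested skeletal muscle genes, *Tnnt1* rose from 0.271 and 0.313 FPKM to 0.724 and 0.945 FPKM, and of 6 markers of mature host cardiomyocytes *Pln* rose, 2 calls not made when any in vivo library was left out. Limma called 0 genes in lists of glycolysis and hypoxia (25 tested, 13 at an unadjusted p under 0.05), oxidative phosphorylation (29 and 12), cholesterol synthesis (18 and 9), the unfolded protein response (23 and 8), the heat shock response (15 and 3) and glucocorticoid response (14 and 7). Limma-voom called 0 in each of them.

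Small lists of other cell types also gave 0 calls by limma: neutrophils (3 tested, 1 at an unadjusted p under 0.05), T and NK cells (3 and 1), Schwann cells (5 and 1) and erythroid cells (4 and 1). Limma-voom called 1 neutrophil gene lower and 0 genes in the other 3. Of the 27 genes that the study names for this experiment or its circuit, 24 were tested, 1 fell (*Spp1*) and 0 rose, with a median of -0.58, and without in vivo 2 week replicate 1, 2 fell and 1 rose. The study chose these genes with such samples in view, so they are no independent evidence of a direction.

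The change over the week in the heart was set against that in culture as a difference of differences, for which the time courses share no library. This difference was higher in the heart for 100 genes, which is 0.688% of the genes tested, and lower for 191, which is 1.31%. Of the 377 genes called in the heart, 65 were also called for this difference, 33 of them risen in the heart with a higher change there and 27 fallen with a lower change. Another 226 genes were called for the difference alone, and 145 of them had changed in culture. The count of 291 was 56 without in vivo 2 week replicate 1, 126 without in vivo 2 week replicate 2, 2 without either in vivo 1 week library and 10 to 32 without any of the in vitro libraries. Medium, inhibitors and surroundings differ between heart and culture together and cannot be told apart.

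Several genes rose more in the heart than in culture, though the lists of some of them rose in culture too. The resident fibroblast list had a median of 0.65 in culture beside 0.55 in the heart, with 3 differences called higher and 2 lower. The tendon and cartilage list had 0.63 in culture beside 1.10 in the heart. In it, 8 genes rose in culture, and 2 differences were called higher and 0 lower. *Pi16* rose by 2.25 in the heart and by 0.64 in culture (difference 1.61, SE 0.12, limma adjusted p = 0.002). *Comp* rose by 2.64 and by 1.30 (difference 1.34, limma adjusted p = 0.0086), from levels under 1 FPKM in culture. *C4b* rose by 1.89 in the heart and changed by 0.32 in culture (difference 1.56, limma adjusted p = 0.0028). *Bmp4* and *Bmp6*, which changed by 0.05 and -0.08 in culture, had differences of 1.19 and 1.15. By contrast *Gsn*, *Fbln1* and *C7* rose in both places, with differences of 0.20, 0.08 and -0.03 that did not pass the test (limma adjusted p = 0.42, 0.72 and 0.97).

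For other genes the change was larger in culture. *Tnni3* rose by 2.86 in culture, from 2.90 and 3.60 FPKM to 26.5 and 21.9 FPKM, against 0.10 in the heart (difference -2.76, SE 0.37, limma adjusted p = 0.0068), and *Actc1* by 3.07 against 0.66 (difference -2.41, limma adjusted p = 0.0097). In all, 10 of 24 cardiomyocyte genes rose in culture and 5 had a lower change in the heart. *Ccl2* rose in culture from 236 and 244 FPKM to 663 and 853 FPKM, a change of 1.65 against -1.0 in the heart (difference -2.64, limma adjusted p = 0.0031), and *Ccl7* and *Ccl12* had differences of -2.46 and -2.38. Of the 18 endothelial genes, 14 rose in culture and 7 had a lower change in the heart, while of the pericyte genes *Rgs5* was at 78.6 and 66.0 FPKM and then at 52.6 and 42.1 FPKM in the heart and rose by 2.10 in culture (difference -2.71, limma adjusted p = 0.0029).

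Some macrophage genes diverged too, in both directions. Of the 17 genes of resident macrophages listed above, 6 rose in culture. The change was higher in the heart for 2 of the 17 and lower for 2. *Mgl2* rose by 3.79 in culture against 3.05 in the heart. *Clec10a* rose by 3.10 against 0.70 (difference -2.40, limma adjusted p = 0.0031), and *F13a1* by 2.58 against 0.35 (difference -2.24, limma adjusted p = 0.0056). *Spp1* was at 231, 252, 221 and 302 FPKM in culture, a change of 0.10 beside the fall of 1.84 in the heart (difference -1.94, SE 0.25, limma adjusted p = 0.0062), and *Marco* was at 4.32 and 3.55 FPKM and then at 0.601 and 1.64 FPKM in culture, against its rise in the heart (difference 7.32, limma adjusted p = 0.0029). The MHC class II genes rose in both places, and more on the log2 scale in culture: *Cd74* by 3.06, from 7.42 and 8.88 FPKM to 65.2 and 71.7 FPKM, which stayed below the levels in the heart (difference -1.76, limma adjusted p = 0.0028). *Mcpt4* rose in culture from 64.1 and 61.5 FPKM to 146 FPKM in both libraries while it fell in the heart (difference -3.56, SE 0.10, limma adjusted p = 4.8e-05). In all, 6 genes fell in the heart and rose in culture, 0 did the opposite by limma, 71 rose in both and 43 fell in both.

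**Figure D5:**
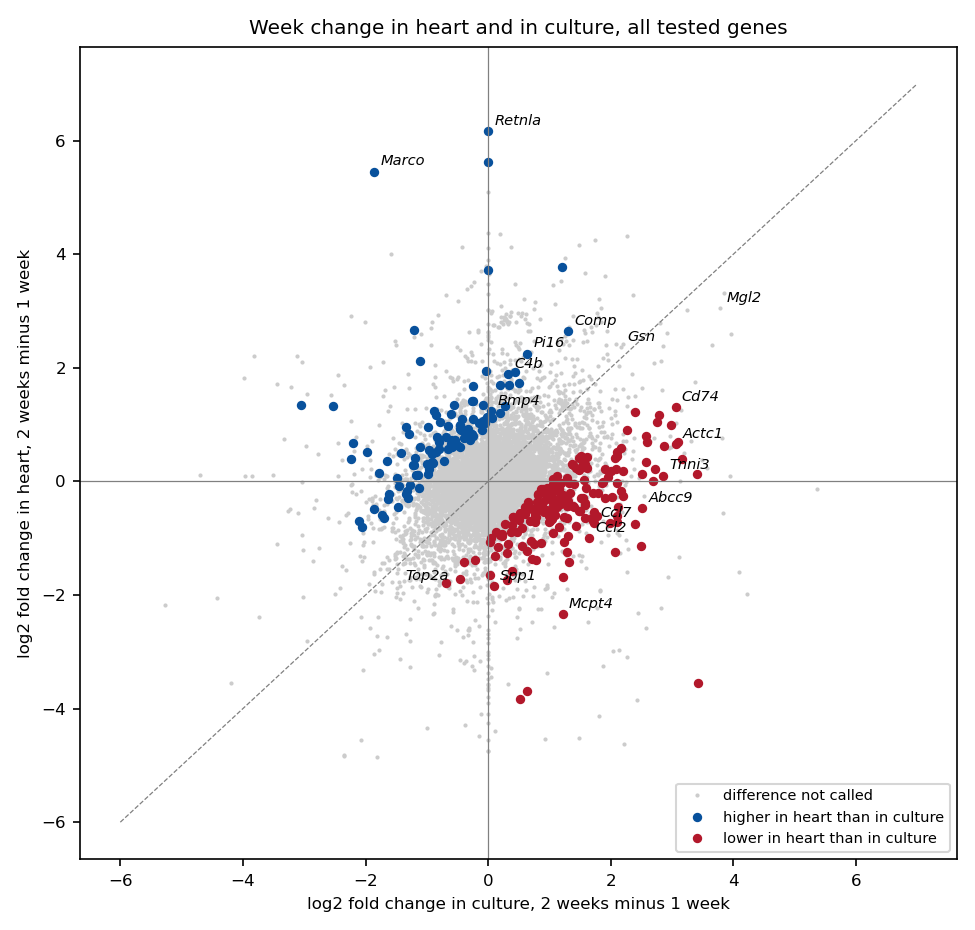
Log2 difference between 2 weeks and 1 week in the heart (y axis) against that in culture (x axis) for tested genes, with genes called for the difference of both in colour. *Marco*, *Pi16* and *Comp* lie above the diagonal, *Mcpt4*, *Tnni3*, *Ccl2* and *Spp1* below it.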

How the data were processed

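Gene-level FPKM values were used as deposited. Base calls by CASAVA and alignment with HISAT2 2.0.5 to mm10 are named in the submitters' processing notes, and the counter and annotation are not given in the sources used here. The authors' FPKM reflect library sizes that differ from the fragments on genes by factors of 0.863 to 0.915 in vivo. FPKM multiplied by gene length gave whole fragments (within 0.01) for 100.0% of values in each library, from which fragments were recovered for depth and for limma-voom. Starts and ends matched GENCODE vM21 for 98.3% of 54495 shared genes.

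Groups came from the labels. Limma 3.58.1 (R 4.3.3) with an intensity trend in the variance was fitted to log2(FPKM + 0.1) of all 8 libraries in 4 groups. The genes tested, the contrasts and the thresholds were those stated above. The scripts were tested on simulated data before use. Replicate differences exceeded sampling noise (chi-square per gene 5.34 at 1 week and 9.22 at 2 weeks), so no library was counted as a copy.

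Named genes were the 15 largest rises and 15 largest falls among called protein-coding genes whose weeks did not overlap and whose mean was at least 5 FPKM in the higher week, up to 5 called members per list, the genes the study names, the delivered factors, and the first 3 genes of each list. Some genes are not reported here. The members and the 47 gene lists were chosen with earlier results of these data known, and 4 further lists were written after these values were seen. Named outside this rule, after their values were seen, were *Alox15*, *Folr2*, *F13a1*, *Clec10a*, *Cbr2*, *Timd4*, *Mrc1*, *Csf1r*, *Cd9*, *Ciita*, *Ctss*, *Csf3r*, *Trbc2*, *Dkk2*, *Il6*, *Igkc*, *Cpa3*, *Kit*, *Ly6g*, the *Aurk*, *Cenp* and *Kif* genes and *Foxm1*, *Bmp6*, *Dkk3*, *Id4*, *Sfrp5*, *Chad*, *Clec3b*, *Fmod*, *Tnmd*, *Entpd2*, *Fgl2*, *Postn*, *Tnnt1*, *H19*, *Meg3* and *Mest*, and the neuronal list. Replicate numbers were checked for pairing: deviations of libraries with the same number had r = -0.024 over 14537 genes, so they were not treated as pairs.

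Alternatives covered the pseudocount, filter, scaling, variance model, threshold, replicate block, libraries in the fit and leaving out each library. Promoters were read from RefSeq sequence of GRCm38.p6. Python 3.11.15, numpy 2.4.6, pandas 2.3.3 and matplotlib 3.10.9 were used.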

Additional observations from a re-analysis of the deposited data

Results flagged for a closer look

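The following results stood out because the change over the week differed between heart and culture by limma's test of the difference itself, given as heart minus culture on the log2 scale. In all, 100 genes had a higher change in the heart and 191 a lower one.

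Changes higher in the heart among named genes were those of the macrophage genes *Marco* (7.32) and *Retnla* (6.17), of the receptor gene *Uts2r* (3.73), of the matrix and fibroblast genes *Cilp2* (2.57), *Mmp3* (1.67), *Pi16* (1.61), *Prelp* (1.36), *Comp* (1.34) and *Tnxb* (1.06), of the complement gene *C4b* (1.56), and of *Bmp4* (1.19), *Bmp6* (1.15) and *Klf2* (1.01). *Uts2r*, the urotensin receptor, was at 0.502 and 0.361 FPKM at 1 week and at 6.71 and 7.07 FPKM at 2 weeks in the heart, and at 0 in all 4 culture libraries. *Retnla* passed the filter through the 2 week libraries in the heart, and its difference depends on the pseudocount, since it was at 0.143 and 0 FPKM at 1 week and at 0 in culture. With a pseudocount of 1 its difference was 3.5.

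Changes lower in the heart covered several groups. The chymase gene *Mcpt4* had a difference of -3.56, and other mast cell proteases were near 0 in culture, as given above. Among macrophage genes the lower changes were those of *Spp1* (-1.94), *Ms4a7* (-1.56) and *Fabp5* (-1.42), beside the 2 genes of resident macrophages given above. Among genes of antigen presentation they were *Cd74* (-1.76), *H2-Aa* (-1.60) and *H2-Eb1* (-1.18), and among chemokines, cytokines and their regulators *Ccl3* (-2.72), *Ccl2* (-2.64), *Ccl7* (-2.46), *Ccl12* (-2.38), *Lif* (-1.69) and *Irf1* (-1.64).

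Genes of blood vessels and mural cells were *Abcc9* (-2.99), *Rgs5* (-2.71), *Kcnj8* (-2.68), *Cdh5* (-2.23), *Kdr* (-1.83) and *Pecam1* (-1.72). *Fabp4*, which is in neither the endothelial nor the mural list, had a difference of -1.55. Cardiac and smooth muscle genes were *Tnni3* (-2.76), *Actc1* (-2.41) and *Cnn1* (-1.0). The others were the imprinted genes *H19* (-2.74) and *Mest* (-1.10), and *Bmp2* (-2.30), *Dkk2* (-2.90), *Ube2c* (-1.09), *Mmp14* (-1.06) and *Adamts12* (-1.03). Without in vivo 1 week replicate 1 or without in vivo 1 week replicate 2, 42 of the 43 genes named here were no longer called, with their direction kept, and 35 were not without in vivo 2 week replicate 1.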

How the results depend on the processing

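No named gene that was called changed direction under any alternative run. For the change in the heart, 377 genes in the fit as reported became 717 at an adjusted p under 0.05, 829 with no limit on the fold change, 57 with the in vivo libraries alone and, by limma, 0 with the in vivo libraries alone and the replicate number as a block (3973 genes at an unadjusted p under 0.05; limma-voom on all libraries called 513). Leaving out 1 library gave 28 to 256 genes. Without a library in culture, which enters only the estimate of the spread, the count was 238 to 246. The other alternatives gave 253 (replicate block, 248 of them among the 377) to 513 genes (limma-voom).

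For the difference between heart and culture, 291 genes became 144 with no filter on low values, 58 without the variance trend, 474 with limma-voom on recovered fragments, 447 with protein-coding genes only, 663 at an adjusted p under 0.05 and 132 with the replicate block. Leaving out 1 library gave 2 to 126 genes. The same replicate number did not mark libraries that deviated together in vivo (r = -0.024), so the block is not read as a pairing.

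Limits: with 2 libraries per group and 4 residual degrees of freedom, most calls in the heart depend on the libraries of culture. At the same threshold limma called 377 genes with all libraries and 57 with the in vivo libraries alone. The causes of these shifts were not tested, beside fewer libraries in the fits that leave some out. Genes near the filter rest on few fragments.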

Other observations

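A list of 12 imprinted genes of growth control, written after values were seen, had 10 tested genes, 3 that fell and 0 that rose, with a median of -0.27. The count was 2 without either in vivo 2 week library, 1 without in vivo 1 week replicate 2 and 0 by limma without in vivo 1 week replicate 1 or with the in vivo libraries alone, while 7 of the 10 had an unadjusted p under 0.05 with all libraries and limma-voom called 1 higher and 3 lower. *H19*, the maternally expressed non-coding RNA next to *Igf2*, went from 66.5 and 74.1 FPKM at 1 week to 29.1 and 23.7 FPKM at 2 weeks in the heart (log2 difference -1.41, limma adjusted p = 0.00075). In culture it rose from 18.8 and 18.9 FPKM to 45.6 and 49.4 FPKM, so that the difference between heart and culture was -2.74 (limma adjusted p = 0.0009). *Mest*, a paternally expressed gene, went from 6.21 and 6.19 FPKM to 3.01 and 2.82 FPKM in the heart and stood at 17.7 to 18.9 FPKM in culture. *Meg3*, a maternally expressed non-coding RNA, fell in both places, by 1.11 in the heart and by 2.03 in culture on the log2 scale.

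Outside the lists, *Inmt*, a methyltransferase of quiescent stroma, was at 0.48 and 0.38 FPKM at 1 week, under the filter's minimum, and at 4.54 and 5.89 FPKM at 2 weeks, through which it was tested. *Myoc*, myocilin, went from 1.48 and 1.67 FPKM to 16.1 and 20.6 FPKM (3.45, limma adjusted p = 0.0017). *Ptprn*, a protein of secretory granules, fell from 7.32 and 6.41 FPKM to 2.27 and 1.21 FPKM (-1.98, limma adjusted p = 0.0045). In each of them the libraries of both weeks did not overlap.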
